A study of Saccharomyces cerevisiae with 104 samples.

Results

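The messengers of the cytoplasmic translation factors of the budding yeast Saccharomyces cerevisiae were examined in 4 RNA-seq libraries. A fixed set of 40 gene names was used, defined by the function of their products, and all 40 were found among the 7108 genes of each table. They comprise 27 genes of initiation, with the poly(A)-binding protein PAB1 counted among them, 11 of elongation and 2 of termination. The series holds 104 samples, of which 100 are ChIP-exo samples that were not analysed here. The 4 RNA-seq libraries of total RNA carry no label of treatment, strain, genotype or replicate. A single text on growth at 25 °C and on H2O2 at 0.3 mM for 6 minutes is attached to every sample of the series, and the preparation text describes chromatin rather than RNA. The libraries are therefore called library 1 to library 4, names that give no order, and each one stands alone. The series' title and design text name RNA polymerase II stalling under peroxide stress as the subject. No value below has a replicate, and no test was possible. Values in series follow the order of libraries 1, 2, 3 and 4.

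Translation starts when initiation factors bring the capped messenger and the initiator tRNA to the small ribosomal subunit, which then scans for a start codon. Elongation factors deliver aminoacyl-tRNA and move the ribosome along the messenger, and release factors free the finished protein at a stop codon. In growing yeast these factors are among the abundant proteins, and elongation factors are needed in larger amounts than most initiation factors.

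All levels are given as TPM, a length-normalised abundance, or as the relative level, which is TPM divided by the TPM of the median nuclear protein-coding gene of the same library. That median gene stood at 40.2, 7.50, 17.6 and 3.59 TPM. The large gap between libraries goes with the share of TPM held by the 5989 nuclear protein-coding genes, which was 46.9, 12.2, 21.2 and 5.77%. Nuclear genes that are neither protein-coding nor named as reading frames, ribosomal RNA among them, held 47.6, 86.7, 74.4 and 89.6%. Raw TPM values of different libraries are therefore not compared directly below. The median read depth over the 40 factor genes was 65.3, 20.3, 37.4 and 11.9, against 12.8, 3.70, 8.17 and 2.26 over all nuclear protein-coding genes. The factor genes were thus read more deeply than the typical gene. The shallowest factor gene was HEF3, with depths of 0.724 to 3.45, followed by ANB1 with depths of 2.20 to 3.59.

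Most translation factor messengers stood well above the median gene in each of the 4 libraries. Of the 40 factors, 35, 35, 33 and 34 were at least 2-fold above it. Among all nuclear protein-coding genes the same held for 23.5, 24.6, 23.3 and 24.6%. The median relative level of the 40 factors was 5.11, 5.49, 4.58 and 5.26, against 1 for the median gene by definition. Between 23 and 27 of the 40 lay in the top 10% of nuclear protein-coding genes. Initiation factors had median relative levels of 5.04, 4.64, 4.04 and 4.52. Elongation factors had median relative levels of 11.7, 26.6, 9.23 and 16.03, so their class median was 2.32, 5.74, 2.28 and 3.55 times that of initiation factors. The release factors averaged 6.21, 5.58, 5.74 and 5.56. Only elongation factor genes were listed below the median gene, namely HEF3 in each library, ANB1 in libraries 1, 2 and 3, and HYP2 in libraries 1 and 3. The listed HYP2 level is uncertain, because HYP2 lies inside YEL034C-A, a reading frame of the opposite strand. Both entries together stood at 7.54, 21.9, 9.51 and 21.3. Without the near-identical pairs TEF1/TEF2, EFT1/EFT2 and TIF1/TIF2, whose reads cannot be told apart with certainty, the elongation median was 2.19, 4.33, 1.88 and 3.49, against an initiation median of 3.40, 4.51, 3.95 and 4.47. The order of the class medians thus turned in each library once these copies were left out. With HYP2, ANB1, YEF3 and HEF3 left out as well, TEF4, CAM1 and EFB1 remained of the elongation class. Their median was then that of TEF4, at 10.5, 16.01, 9.23 and 12.1, above the initiation median in each library. The order of the classes therefore depends on which genes are left out.

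**Figure D1:**
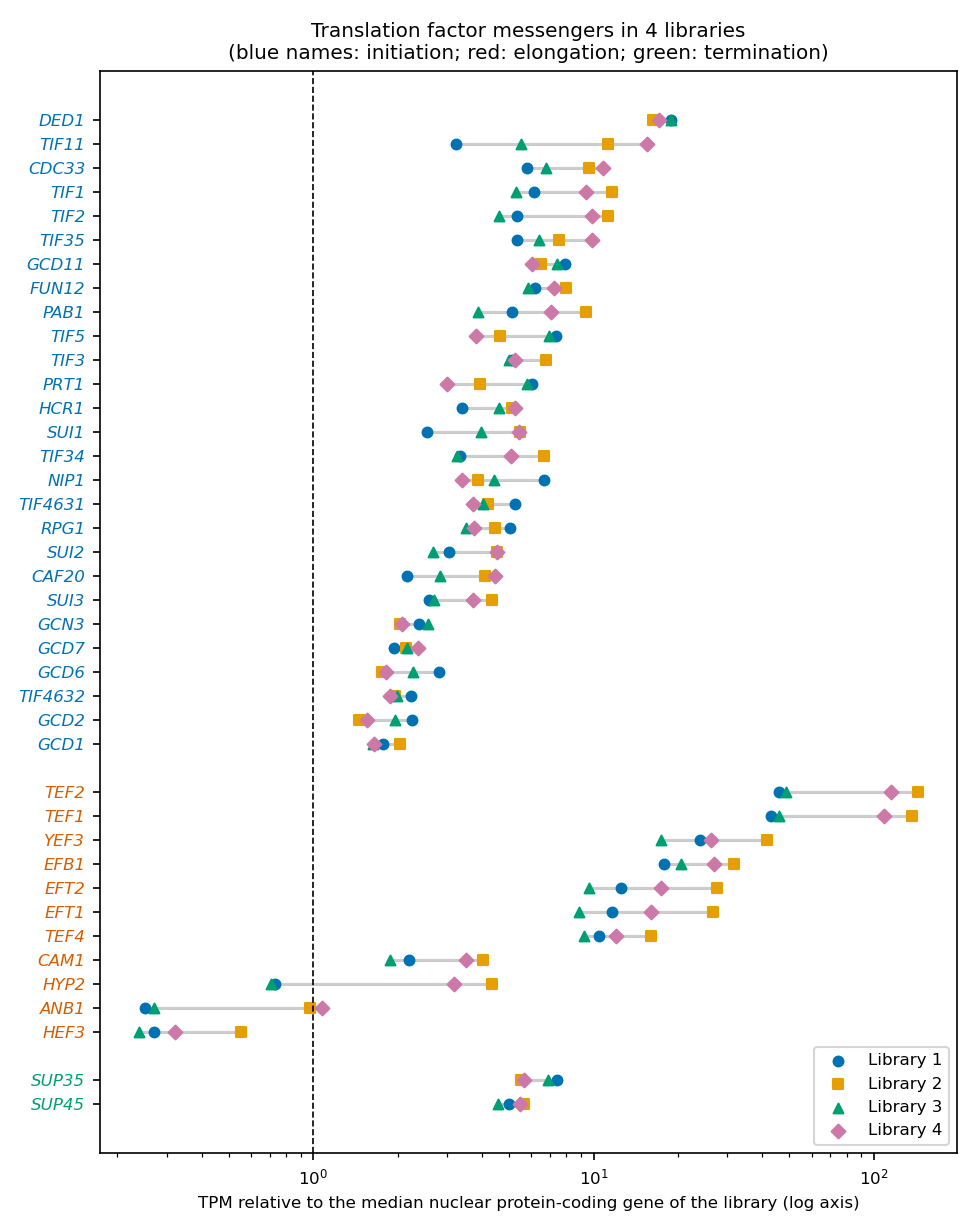
Relative level (TPM over the median nuclear protein-coding gene of the library, log axis) of each of the 40 factor genes, sorted within class, with 1 symbol per library and a grey line from the lowest to the highest library. The dashed line marks the median gene; TEF1 and TEF2 lie farthest right, ANB1 and HEF3 farthest left, and the 27 initiation factors all lie right of the line.

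As a share of nuclear protein-coding TPM, the 40 factors held 2.67, 3.72, 2.50 and 3.10%. Initiation factors kept a narrow share of 1.11, 0.986, 1.05 and 0.969%. Elongation factors held 1.45, 2.66, 1.35 and 2.06%, and termination factors held 0.106, 0.0685, 0.0952 and 0.0692%. Summed TPM of elongation factors was 1.30, 2.70, 1.29 and 2.12 times that of initiation factors. TEF1 and TEF2 alone made up 52.7, 64.6, 57.9 and 67.7% of the elongation sum.

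DED1, a DEAD-box RNA helicase that helps the small subunit through structured leaders (chromosome 15, 722911 to 724725), stood at 760.5, 122, 332 and 61.5 TPM. Its relative level of 18.9, 16.3, 18.9 and 17.1 was the highest of the initiation class in each library. The relative level of DED1 also varied least of all 40 genes, with a range of 0.22 over the libraries on the log2(relative level + 0.1) scale. That ranking is given for the median gene as the unit only and can differ with another unit. CDC33, the cap-binding protein eIF4E (chromosome 15, 60383 to 61024), had relative levels of 5.81, 9.59, 6.79 and 10.8. CAF20, which binds eIF4E and keeps it from the scaffold eIF4G, had lower relative levels of 2.15, 4.10, 2.84 and 4.47. The CAF20 level was 0.370, 0.427, 0.419 and 0.413 of the CDC33 level, so the listed ratio of these messengers moved little. CAF20 overlaps a reading frame of the opposite strand, YOR277C, over 304 bases. Strandedness of the libraries is not given in the sources used here, so the reads of such partners cannot be told apart.

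The scaffold eIF4G is encoded by TIF4631 and TIF4632. TIF4631 (chromosome 7, 824059 to 826917) had relative levels of 5.23, 4.20, 4.04 and 3.73, and TIF4632 (chromosome 7, 406860 to 409604) had 2.23, 1.95, 1.98 and 1.88. TIF4631 thus supplied 70.1, 68.3, 67.1 and 66.5% of the pair, the larger part in each library. The helicase eIF4A is encoded by TIF1 and TIF2, which are near-identical copies. TIF1 (chromosome 11, 554987 to 556174) stood at 246, 87.2, 93.5 and 33.7 TPM. TIF2 (chromosome 10, 153504 to 154691) stood at 214, 84.4, 80.9 and 35.5 TPM. Their relative levels of 6.11, 11.6, 5.31 and 9.37 and of 5.33, 11.3, 4.59 and 9.88 were highest in library 2 and lowest in library 3. TIF3, the eIF4A partner eIF4B, varied less, at 5.12, 6.75, 4.999 and 5.26. PAB1, which binds the poly(A) tail and eIF4G, stood at 5.10, 9.37, 3.88 and 7.02 and had the same order of libraries as TIF1, with library 2 highest and library 3 lowest.

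The subunits of eIF3, the large complex that holds the small subunit ready for the messenger, did not keep a common order of levels. NIP1 (chromosome 13, 892988 to 895426) had relative levels of 6.66, 3.86, 4.42 and 3.38, and PRT1 (chromosome 15, 1015361 to 1017652) had 6.05, 3.94, 5.79 and 2.99. These 2 core subunits stood highest in library 1 and lowest in library 4. TIF35 (chromosome 4, 1324477 to 1325301), the RNA-binding subunit, ran the other way with 5.32, 7.53, 6.38 and 9.89. TIF34, which binds PRT1 together with TIF35, had 3.35, 6.67, 3.27 and 5.06. The largest subunit RPG1 had 5.04, 4.43, 3.49 and 3.75, and the loosely bound HCR1 had 3.40, 5.11, 4.59 and 5.26. The highest subunit was 1.99, 1.95, 1.95 and 3.31 times the lowest, and the lowest subunit was TIF34, NIP1, TIF34 and PRT1 in turn.

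For eIF2, the GTP-binding carrier of initiator tRNA, the gamma subunit led. GCD11, the GTPase subunit (chromosome 5, 205251 to 206834), had relative levels of 7.91, 6.48, 7.40 and 6.04. SUI2, the alpha subunit that Gcn2 phosphorylates under starvation, had 3.04, 4.51, 2.66 and 4.52. SUI3, the beta subunit, had 2.58, 4.34, 2.70 and 3.71. GCD11 was therefore 2.60, 1.44, 2.78 and 1.34 times SUI2. SUI3 shares 368 bases with YPL238C on the opposite strand, which was listed at relative levels of 2.71, 3.40, 4.58 and 3.15, so its own value is uncertain.

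The 5 genes of eIF2B, the exchange factor that reloads eIF2 with GTP, had the lowest mean level of the initiation complexes and lay close together. The catalytic subunit GCD6 had relative levels of 2.80, 1.75, 2.28 and 1.82, and its partner GCD1 had 1.78, 2.04, 1.63 and 1.65. The regulatory subunits GCD2, GCD7 and GCN3 ranged between 1.46 and 2.56 over all libraries. Within each library the highest of the 5 subunits was at most 1.57 times the lowest. The mean level of eIF2 subunits was 2.02, 2.71, 2.01 and 2.51 times that of eIF2B subunits.

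**Figure D2:**
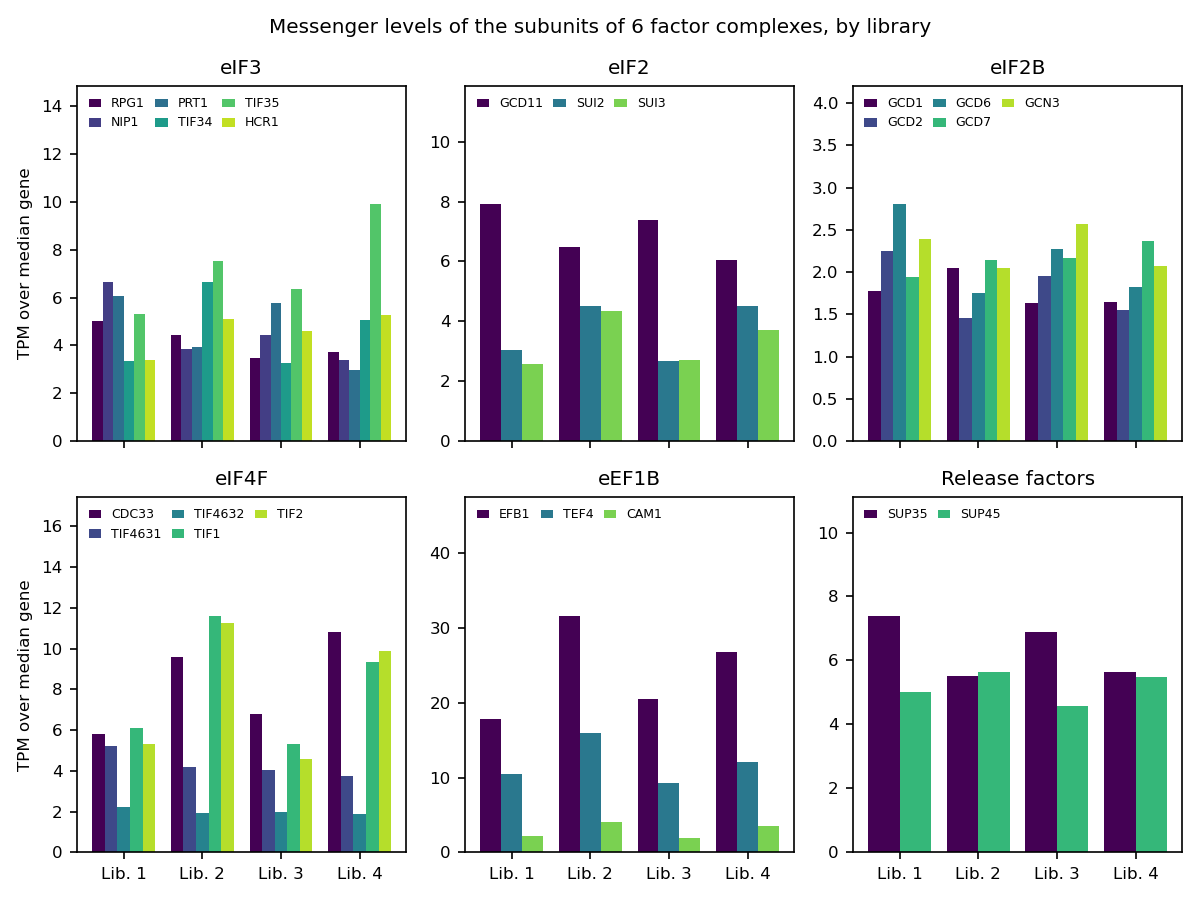
Relative level (TPM over the median nuclear protein-coding gene, linear axis from 0, a scale of its own in each panel) of the subunit genes of 6 factor complexes, with 1 bar per gene and library and no error bars because no replicate is labelled. GCD11 is the tallest bar of eIF2 and EFB1 of eEF1B in each library, while the tallest eIF3 bar is NIP1 in library 1 and TIF35 in the other libraries.

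Factors that act during scanning and subunit joining included the most variable initiation gene. TIF11, eIF1A, which stabilises the scanning complex (chromosome 13, 789378 to 789839), stood at 129.6, 84.4, 96.8 and 55.96 TPM. Its relative level of 3.22, 11.2, 5.50 and 15.6 was lowest in library 1 and highest in library 4, a range of 2.24 on the log2 scale. In library 4 it was the second initiation gene after DED1. SUI1, eIF1, which acts beside eIF1A in start codon choice (chromosome 14, 187170 to 187496), had relative levels of 2.54, 5.45, 3.95 and 5.40. TIF11 was 1.27, 2.06, 1.39 and 2.88 times SUI1. TIF5, eIF5, which makes eIF2 hydrolyse its GTP (chromosome 16, 648704 to 649921), ran against both with 7.32, 4.64, 6.95 and 3.79. FUN12, the subunit-joining GTPase eIF5B, was steadier at 6.18, 7.99, 5.81 and 7.24.

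Elongation held the most abundant factor genes. TEF1 and TEF2 encode eEF1A, which carries aminoacyl-tRNA to the ribosome. TEF2 (chromosome 2, 477671 to 479047) had relative levels of 45.9, 144, 48.5 and 115, and ranked 15, 7, 16 and 6 among the 5989 nuclear protein-coding genes. TEF1 (chromosome 16, 700594 to 701970) had 43.1, 136, 45.8 and 109. TEF1 was 48.4 to 48.7% of the pair, nearly equal to TEF2 in each library, and these near-identical copies cannot be separated with certainty. EFT1 and EFT2, which encode the translocase eEF2, were listed at similar levels. As near-identical copies they cannot be separated with certainty either. EFT2 (chromosome 4, 1243230 to 1245758) stood at 502, 207, 169 and 62.7 TPM, a relative level of 12.5, 27.6, 9.60 and 17.4. EFT1 (chromosome 15, 575098 to 577626) was 47.9 to 49.1% of that pair.

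YEF3, the ATPase eEF3 that fungi need for elongation (chromosome 12, 636780 to 639914), stood at 965, 313, 307 and 94.2 TPM. Its relative level was 23.99, 41.7, 17.4 and 26.2. Its paralog HEF3 (chromosome 14, 606319 to 609453) was listed at 10.9, 4.15, 4.20 and 1.15 TPM, a relative level of 0.270, 0.553, 0.238 and 0.321. YEF3 was between 98.6 and 98.9% of the pair in each library. Reads of YEF3 assigned to its paralog could contribute to the HEF3 values, which was not tested. The exchange factor eEF1B recharges eEF1A with GTP. Its catalytic subunit EFB1 (chromosome 1, 142174 to 143160) had relative levels of 17.8, 31.6, 20.5 and 26.8. The gamma subunits TEF4 and CAM1 had 10.5, 16.01, 9.23 and 12.1, and 2.19, 4.04, 1.88 and 3.49. TEF4 therefore made up 82.7, 79.9, 83.1 and 77.5% of those 2 genes. EFB1 and TEF4 each contain a small nucleolar RNA gene within their span, SNR18 and SNR38. SNR18 was listed at relative levels of 4.26, 22.9, 16.96 and 82.7 and SNR38 at 1.47, 2.71, 2.80 and 3.43, and their part in the host gene values was not tested.

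The genes HYP2 and ANB1 encode eIF5A, which carries the modified amino acid hypusine and helps ribosomes through difficult stretches such as runs of proline, and ANB1 is known as the form used when oxygen is low. HYP2 (chromosome 5, 85676 to 86149) was listed at 29.4, 32.5, 12.4 and 11.4 TPM, a relative level of 0.732, 4.33, 0.705 and 3.17. ANB1 (chromosome 10, 524908 to 525381) had 10.1, 7.27, 4.75 and 3.87 TPM, or 0.251, 0.969, 0.270 and 1.08. HYP2 made up 74.5, 81.7, 72.3 and 74.7% of the pair. The whole of HYP2 lies inside YEL034C-A (chromosome 5, 85613 to 86215), a reading frame of the opposite strand listed at 274, 132, 155 and 65.1 TPM. HYP2 held 9.71, 19.8, 7.41 and 14.9% of the TPM of these 2 entries, which together had relative levels of 7.54, 21.9, 9.51 and 21.3. The listed HYP2 level and its differences between libraries are therefore uncertain, since reads of the 2 strands cannot be told apart here.

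**Figure D3:**
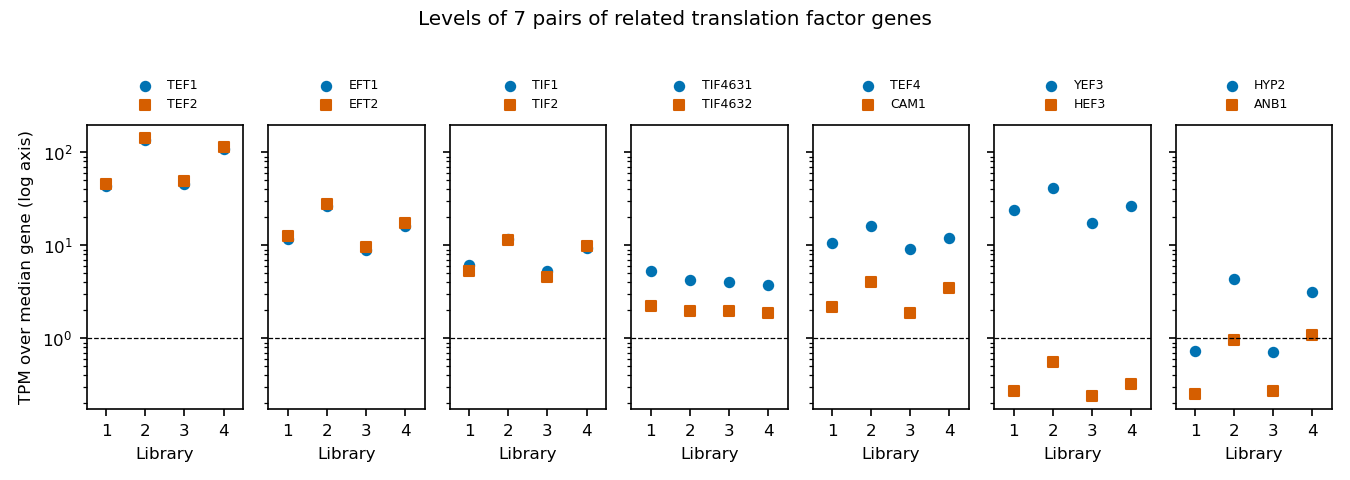
Relative level (TPM over the median nuclear protein-coding gene, log axis) of 7 pairs of related factor genes in libraries 1 to 4, with circles for the first and squares for the second gene named and a dashed line at the median gene. TEF1/TEF2, EFT1/EFT2 and TIF1/TIF2 nearly coincide, whereas YEF3 lies far above HEF3 and TEF4 above CAM1 in each library.

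Measured against the median gene, both release factors varied little over the libraries. As a share of nuclear protein-coding TPM they varied more, from 0.106% in library 1 to 0.0685% in library 2. SUP35, the GTPase eRF3 known for its prion form (chromosome 4, 808324 to 810381), stood at 298, 41.5, 122 and 20.2 TPM, a relative level of 7.40, 5.53, 6.90 and 5.63. SUP45, the stop codon reader eRF1 (chromosome 2, 530869 to 532182), stood at 202, 42.3, 80.5 and 19.7 TPM, a relative level of 5.01, 5.64, 4.57 and 5.49. SUP35 was 1.48, 0.980, 1.51 and 1.03 times SUP45, so SUP35 was the higher of the 2 in libraries 1 and 3 and nearly level with it in libraries 2 and 4. Neither gene spanned 2-fold over the libraries.

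Relative levels were then set against each other for the 6 pairs of libraries, as the difference of log2(relative level + 0.1), the first library minus the second. A gene was counted where the difference reached 1 log2 unit, a 2-fold difference on that scale. All 40 factors were among the 5667 genes whose TPM had a median of 1 or more over the libraries. For library 1 minus library 2, 9 of 40 factors were lower and 0 higher, against 15.9% lower and 7.11% higher of all genes. For library 2 minus library 3, 13 were higher and 0 lower, against 13.5% and 5.33%. Between libraries 1 and 4, 7 were lower and 0 higher, against 15.1% and 8.49%. For library 3 minus library 4, 6 were lower and 0 higher, against 12.2% and 5.61%. Libraries 1 and 3 differed by 2-fold for 0 of 40 factors in either direction, against 0.247% higher and 1.57% lower of all genes. Libraries 2 and 4 also differed by 2-fold for 0 factors, against 3.30% higher and 1.92% lower. The pairs share libraries, so these counts are not separate observations. Without the near-identical copies and the pairs HYP2/ANB1 and YEF3/HEF3, 30 factors remained, and of these only SUI1 and TIF11 were lower in library 1 than in library 2. For library 2 minus library 3, 4 of the 30 were higher, namely TIF11, TIF34, PAB1 and CAM1. Between libraries 1 and 4, 3 were lower, namely TIF11, SUI1 and CAF20, and between libraries 3 and 4 only TIF11 was.

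By class, elongation genes made up 6 of the 9, 8 of the 13, 4 of the 7 and 4 of the 6 factors counted in the 4 pairs with any. Without the copies, HYP2/ANB1 and YEF3/HEF3, they made up 0 of 2, 1 of 4, 0 of 3 and 0 of 1. The median elongation difference was -1.14 for library 1 minus library 2, 1.51 for library 2 minus library 3, -0.59 for library 1 minus library 4 and -0.85 for library 3 minus library 4, where the median of all genes lay between -0.03 and 0.01. In each of these 4 pairs all 11 elongation genes differed in the same direction. Of the 5667 genes 2893, 2856, 2890 and 2910 differed that way. The 11 include near-identical copies and are not separate observations, and all 81 large-subunit ribosomal protein genes differed that way too. TEF2 differed by -1.64 between libraries 1 and 2 and EFT1 by -1.18, while TEF4 differed by -0.61. Initiation factors had median differences of -0.37, 0.31, -0.23 and -0.12 in the same 4 pairs, with members on both sides of 0. NIP1 was the initiation gene with the highest difference between libraries 1 and 2, at 0.77, and TIF11 had the lowest, at -1.77. For library 1 minus library 3 and library 2 minus library 4 the median elongation differences were 0.13 and 0.41, and those of initiation were 0.07 and 0.10.

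These directions depend on the unit. With the summed nuclear protein-coding TPM as the unit in place of the median gene, the median of all genes moved to 0.40, -0.38, 0.38 and 0.34 in the same 4 pairs. The share of higher genes among all genes past 2-fold then moved to 70.7, 32.9, 71.7 and 69.7%, against 30.9, 71.7, 36.1 and 31.5% with the median gene. Initiation medians turned to 0.11, -0.11, 0.23 and 0.27, whereas elongation medians kept their direction at -0.66, 1.08, -0.13 and -0.44. Termination medians moved to 0.60, -0.44, 0.58 and 0.42. With that unit all 11 elongation genes still differed in the same direction for library 1 minus library 2 and library 2 minus library 3, but 7 and 9 of the 11 did for library 1 minus library 4 and library 3 minus library 4. For library 1 minus library 2, 5 factors were then at least 2-fold higher and 5 lower, against 21.1% and 8.77% of all genes. Without the near-identical copies, HYP2/ANB1 and YEF3/HEF3, only TEF4, CAM1 and EFB1 remained of the elongation class. With the median gene as the unit, the middle one of these 3 differed by -0.83, 0.79, -0.59 and -0.39 in the 4 pairs.

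**Figure D4:**
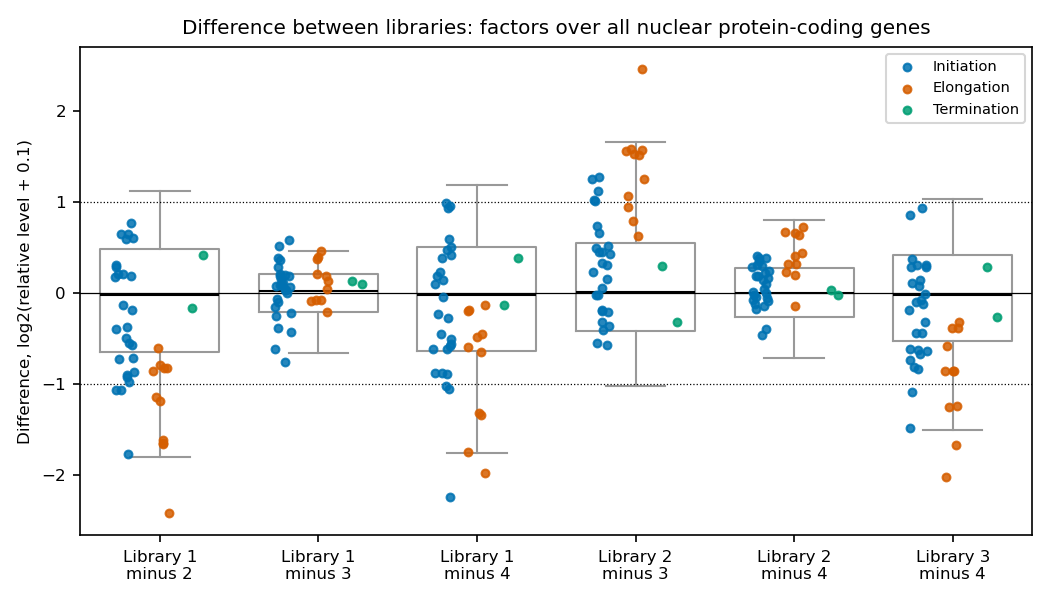
Difference of log2(relative level + 0.1) for the 6 pairs of libraries, first minus second; points are factor genes by class, boxes show the quartiles of the 5667 nuclear protein-coding genes with whiskers at 5 and 95%, and dotted lines mark 2-fold. Elongation factors all lie below 0 for library 1 minus library 2 and all above 0 for library 2 minus library 3, while initiation factors lie on both sides.

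Over the 4 libraries together, 15 of 40 factors spanned at least 2-fold, close to the 35.9% of all genes tested. The median range was 0.88 for the factors and 0.79 for all genes. Of the elongation genes 8 of 11 spanned 2-fold, of the initiation genes 7 of 27 and of the termination genes 0 of 2. The elongation genes that spanned less than 2-fold on that scale were TEF4, EFB1 and HEF3. Without the added 0.1 the highest relative level was 2.32 times the lowest for HEF3 and 2.02 times for the initiation gene PRT1. The initiation genes that spanned 2-fold were TIF11, TIF2, PAB1, TIF1, SUI1, CAF20 and TIF34, whose ranges ran from 2.24 for TIF11 to 1.01 for TIF34. With the median gene as the unit, the steadiest after DED1 were TIF4632 with a range of 0.23, GCD7 with 0.27 and SUP45 with 0.30. GCD1 and GCN3 followed with 0.31 each. Leaving out libraries 1, 2, 3 and 4 in turn left 13, 8, 10 and 14 of 40 factors that spanned 2-fold. The shares of all genes were then 26.7, 26.7, 32.5 and 26.8%.

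Gene span moved with these differences to a degree that varied by pair. The short genes SUI1 of 327 bases, TIF11 of 462 and HYP2 and ANB1 of 474 were all lower in library 1 than in library 4. The long genes PRT1 of 2292 bases and NIP1 of 2439 were higher in library 1 than in library 4, with differences of 0.99 and 0.96. Not all long factors were. Of the 9 factors of 2400 bases or more, NIP1, RPG1, TIF4631 and TIF4632 were higher. FUN12, YEF3, HEF3, EFT1 and EFT2 were lower, and the median of the 9 was -0.13. Across the 40 factors, Spearman's rho between span and the difference for library 1 minus library 4 was 0.69, and across the 5667 genes it was 0.52. Between libraries 1 and 3 it was 0.73 across the factors and 0.63 across all genes, and for library 1 minus library 2 it was 0.43 and 0.46. For library 3 minus library 4 rho was 0.42 and 0.34, for library 2 minus library 4 it was 0.44 and 0.16, and for library 2 minus library 3 it was -0.18 and -0.25. These coefficients describe genes measured in the same libraries, which are not independent points. All nuclear protein-coding genes under 600 bases had a median difference of -0.79 for library 1 minus library 4, against 0.59 for genes of 2400 bases or more. Once the median of genes of like span was subtracted, the elongation medians for library 1 minus library 2, library 2 minus library 3, library 1 minus library 4 and library 3 minus library 4 were -1.34, 1.46, -0.96 and -1.15. The corresponding initiation medians were -0.30, 0.20, -0.23 and -0.18. The cause of the relation to span was not tested.

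**Figure D5:**
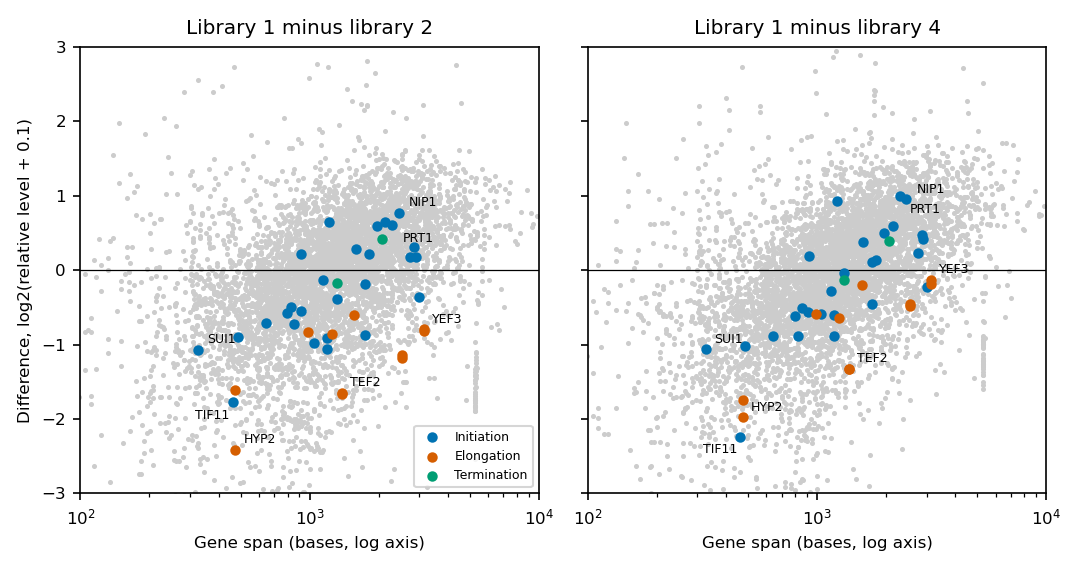
Difference of log2(relative level + 0.1) against gene span (bases, log axis) for library 1 minus library 2 and library 1 minus library 4, with grey points for nuclear protein-coding genes and coloured points for the factors; 60 and 64 genes lie outside the axes. Short factors such as TIF11 and HYP2 lie low, the long initiation factors PRT1 and NIP1 lie high, and YEF3 and FUN12, also long, lie below 0.

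Genes that act beside these factors were lower and gave no common picture. Of 59 listed, 58 were found by name. Accessory initiation genes had a median relative level of 1.86, 2.18, 2.22 and 2.43, with 8, 9, 9 and 10 of 17 at least 2-fold above the median gene. By the median over the libraries, the highest was ASC1, a ribosome-bound scaffold, at 7.47, 34.2, 8.64 and 24.6, and the lowest was CDC123, an eIF2 assembly factor, at 0.721, 0.481, 0.542 and 0.437. Accessory elongation genes, such as those for the modification of eEF1A, eEF2 and eIF5A, had a median of 1.42, 1.29, 1.39 and 1.36. Among them the ribosome-binding STM1 stood highest at 8.53, 29.1, 8.78 and 21.9, and EFM3, an eEF2 methyltransferase, was lowest by its median, at 0.179, 0.257, 0.219 and 0.439. KTI11, needed for diphthamide on eEF2, had the largest range in that list, at 0.487, 0.137, 0.814 and 0.918. Accessory termination and decay genes had a median of 1.42, 1.26, 1.46 and 1.28. Their highest member by median, PUB1, stood at 3.55, 5.96, 3.67 and 6.29, the lowest, SKI7, at 0.591, 0.753, 0.457 and 0.577, and the most variable, the helicase NAM7, at 4.28, 1.81, 3.28 and 1.67. Mitochondrial translation factors had a median of only 0.649, 0.637, 0.644 and 0.806. Among them TUF1, the mitochondrial counterpart of eEF1A, stood at 3.87, 5.01, 4.19 and 4.50, MEF2 at 0.513, 0.284, 0.467 and 0.308, and RRF1 at 0.293, 0.671, 0.346 and 0.767.

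Between libraries 1 and 2, 4 of 17 accessory initiation genes were at least 2-fold lower and 0 higher. Of the 21 accessory elongation genes 3 were lower and 1 higher, of the 12 termination genes 0 and 1, and of the 8 mitochondrial factors 0 and 0, against the same 15.9% and 7.11% of all genes.

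The factors were set beside the ribosomal proteins and the aminoacyl-tRNA synthetases, which serve the same process. The 81 large-subunit ribosomal protein genes had a median relative level of 4.07, 20.6, 5.27 and 18.4, and the 56 small-subunit genes had 4.59, 20.8, 6.11 and 18.4. For library 1 minus library 2 the medians were -1.14 for elongation factors and -0.37 for initiation factors, against -2.28 for large-subunit and -2.10 for small-subunit proteins and -0.33 for the 18 cytosolic synthetases. In that pair the initiation median lay nearer to that of the synthetases than to that of the ribosomal proteins, with the elongation median in between. The same held for library 2 minus library 3, library 1 minus library 4 and library 3 minus library 4. It did not hold for library 2 minus library 4. Medians there were 0.41 for elongation, 0.10 for initiation, 0.17 and 0.11 for ribosomal proteins and 0.33 for synthetases. For library 1 minus library 3 the elongation median of 0.13 lay above the initiation median of 0.07, with ribosomal proteins at -0.42 and -0.43. The synthetases had a median relative level of 4.65, 6.23, 3.89 and 4.84, close to that of the initiation factors. These positions describe 4 libraries without labelled conditions, and whether the lists differ was not tested.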

How the data were processed

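Each of the 4 RNA-seq libraries had a table of 7108 genes. TPM is the deposited unit and sums to the same total in each library, ribosomal RNA included. The same deposited tables give FPKM and coverage, a read depth signal, in fixed proportion to each other within a library. The submitters' processing notes name the build sacCer3 and the tools SAMtools, Picard and BWA for both assays. No separate RNA-seq aligner is named beside BWA, and the abundance estimator and strandedness are not given in the sources used here. No counts were used, so sampling intervals are not given.

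Members and lists were defined by gene function, but chosen with earlier results of these data known. Nuclear protein-coding genes (5989) were taken from the RefSeq R64 gene table, in which all 40 factors have the same start. Relative level is TPM over the median of these genes, zeros included. Differences used log2(relative level + 0.1), which understates those of low genes, for 5667 genes whose median TPM was 1 or more, and a threshold of 1 log2 unit. The counting of 2-fold differences was checked on simulated data. Named genes were all 40 factors and, of each accessory list, the highest, the lowest and the most variable. Alternatives were other units, pseudocounts of 0.01 and 0.5, other filters and each library left out. FPKM and coverage differ from TPM by a single factor per library and give the same relative levels by construction. Adjustment for span and omission of HYP2/ANB1 and YEF3/HEF3 beside the near-identical copies were chosen after seeing the data. The related pairs TEF4/CAM1 and TIF4631/TIF4632 were kept in that omission. Sequences were not used here. The software was matplotlib 3.10.9, scipy 1.17.1, pandas 2.3.3 and numpy 2.4.6 under Python 3.11.15.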

Additional observations from a re-analysis of the deposited data

How the results depend on the processing

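Of 390 alternative values, leaving out FPKM and coverage, whose levels and balances equal those of TPM by construction, 329 moved by less than the spread over libraries or pairs, or by less than 1.5 times for counts, and 61 moved by more. Where values differ widely between libraries, a large move can stay within that spread. Without near-identical pairs the elongation level in library 3 went from 9.23 to 1.88, within a spread of 7.68. Depth limits HEF3 and ANB1 most. No paired analysis was possible because the labels number no replicates and no test was run. Protein identity and promoter motifs were not analysed here. The cause of each move was not tested unless the setting itself makes it.

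With the median taken over all nuclear reading frame names, initiation in library 1 stood at 5.57, termination in libraries 1 to 4 at 6.86, 6.04, 6.21 and 6.00, and all factors in libraries 1, 2 and 4 at 5.65, 5.94 and 5.68. With the median over genes of at least 1 TPM, termination stood at 5.84, 5.25, 5.40 and 5.22. Without near-identical pairs, initiation in library 1 stood at 3.40, elongation at 2.19, 4.33, 1.88 and 3.49, and all factors at 4.21, 4.57, 4.00 and 4.49.

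Shares taken as coverage times span were 1.15, 1.14 and 1.13% for initiation in libraries 2, 3 and 4, 3.69 and 2.87% for elongation in libraries 2 and 4, 0.0963, 0.120 and 0.102% for termination in libraries 2, 3 and 4, and 4.93 and 4.11% for all factors in libraries 2 and 4.

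Scaling by the protein-coding total gave initiation medians of 0.11, 0.23, -0.11 and 0.27 for library 1 minus 2, 1 minus 4, 2 minus 3 and 3 minus 4. Termination medians there were 0.60, 0.58, -0.44 and 0.42, and medians of all factors were -0.11 for 1 minus 2, 0.082 for 1 minus 4 and 0.044 for 2 minus 3. It gave 5, 4, 6 and 2 factors at least 2-fold higher, against 21.1, 21.3, 7.62 and 15.1% of all genes, and 5, 3, 1 and 3 lower, against 8.77, 8.38, 15.5 and 6.55%. With genes of like span subtracted, termination medians were -0.13, -0.16, 0.14 and -0.17, and 0.022 for library 1 minus 3. A pseudocount of 0.01 and median-ratio scaling each gave 1 higher factor for library 1 minus 4, against 11.1 and 8.89% of all genes. Without the near-identical copies, HYP2/ANB1 and YEF3/HEF3, the counts among the 30 factors left were 2 lower, 3 lower, 4 higher and 1 lower. With the main settings 15.9, 15.1, 13.5 and 12.2% of all genes went those ways. Leaving out libraries 1 to 4 in turn gave 13, 8, 10 and 14 of 40 factors that spanned 2-fold. The shares of all genes were 26.7, 26.7, 32.5 and 26.8%.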
